A study of Mus musculus with 4 samples.

Results

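The genes described here encode the 9 receptors of the PPAR, RXR and ERR families and their coactivator Ppargc1a, in mouse ventricle with and without raised Cdk8. They were chosen by symbol, as the 3 PPAR genes (Ppara, Ppard, Pparg), the 3 RXR genes (Rxra, Rxrb, Rxrg), the 3 ERR genes (Esrra, Esrrb, Esrrg) and Ppargc1a. All 10 were found, each on a single row, among the 23847 rows of the deposited table. Cdk8Tg mice, which overexpress Cdk8 in the heart alone, gave 2 libraries, and wild-type (WT) mice gave the other 2. All 4 held polyadenylated RNA of ventricle from C57BL/6 males aged 21 days after birth, prepared with a stranded kit. The sources used here name neither the promoter behind the transgene nor the number of founder lines, and they do not say that each library was a separate animal. The p-values thus measure the spread between libraries alone, and that spread may be technical. Cdk8, the cyclin-dependent kinase of the Mediator complex, reached 7309 and 8122 FPKM in Cdk8Tg, against 7.89 and 9.86 FPKM in WT, and thus matched the labels. FPKM are fragments scaled to transcript length and to sequencing depth, so levels of different genes can be set side by side within a library.

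PPARs, RXRs and ERRs are nuclear receptors, transcription factors that bind DNA directly. PPARs are switched on by fatty acids and their derivatives and bind DNA only as a pair with an RXR, which also pairs with receptors for retinoic acid, thyroid hormone and oxysterols. ERRs resemble the estrogen receptors but bind no estrogen, and they depend on the coactivators of the PGC-1 family, of which Ppargc1a is the founding member. In the heart, PPAR-alpha and the ERRs are best known for driving the genes of fatty acid oxidation and mitochondrial respiration. Mediator links such receptors to RNA polymerase II.

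Of these 10 genes, 3, namely Rxrg, Ppara and Ppard, fell in the Cdk8Tg ventricles and none rose. A fall or rise means an adjusted p under 0.05 in limma on log2(FPKM + 1), with Benjamini-Hochberg adjustment over the 11888 rows that reached a mean of 1 FPKM. All 10 passed that filter. Across all tested genes, 7.98% fell and 16.9% rose, and 24.9% passed in either direction. At an unadjusted p under 0.05 there were 5 members, beside 41.6% of all tested genes. The members' median log2 change was -0.27, beside 0.13 over all tested genes. The sources used here do not state how libraries were scaled to each other, and the calls moved with scaling. After median-of-ratios scaling, which brought the median of all genes to 0.00, 11.7% of genes fell and 7.96% rose, and Esrra joined the members that fell. After quantile normalization 8.74% of genes fell and 8.34% rose, and the same 3 members fell. With every library set to the same FPKM sum, 5.49% fell and 41.2% rose, and Rxrg and Ppara fell while Esrrg rose. In the authors' deposited table, made with Cuffdiff, 8.43% of the tested genes were lower and 5.53% higher at a q-value under 0.05 (14.0% in either direction), and Rxrg, Ppara, Ppard and Ppargc1a were lower. The low values of genes with a single annotated transcript put the depth at 12.0 to 14.2 M (mega) fragments per library. This holds only if FPKM were scaled by the total of the same library, a point on which the sources used here are silent. On that footing a 2-kb transcript at 1 FPKM rested on 24.1 to 28.5 fragments.

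**Figure D1:**
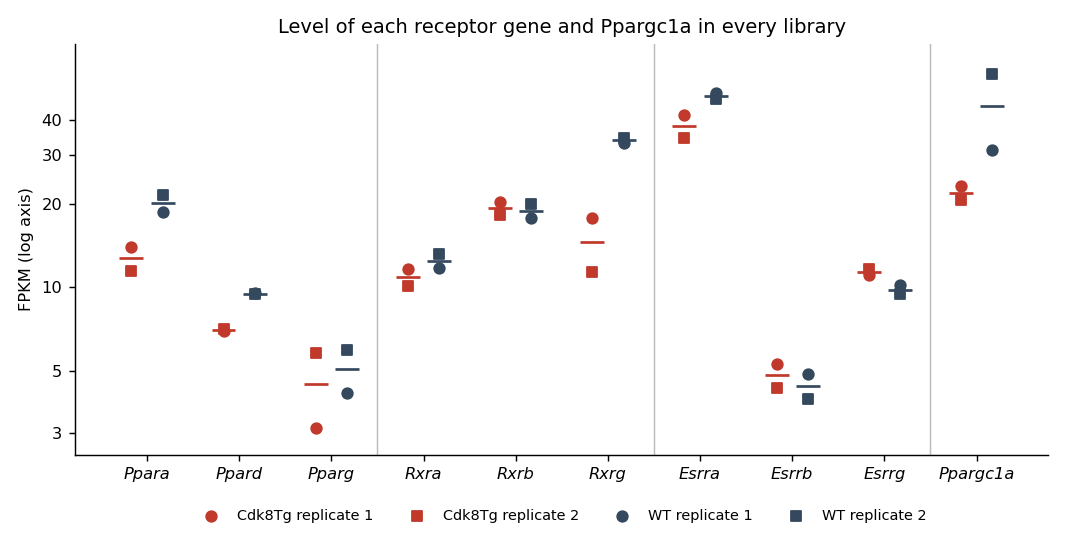
FPKM (log axis) of the 9 receptor genes and Ppargc1a in the 2 Cdk8Tg and 2 WT libraries, with circles for replicate 1, squares for replicate 2 and short lines for group means. The groups do not overlap for 7 of the 10 genes, Rxrg, Ppara, Ppard and Ppargc1a among them, beside 70.3% of all tested genes. For Ppargc1a the WT libraries are far from each other, at 31.1 and 58.7 FPKM.

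The starting windows of the genes that fell, and of Ppargc1a, are printed to show the sequence at their annotated starts. Each window runs from 250 bases before to 50 bases after a RefSeq start site on GRCm38.p6 and so covers the proximal promoter and the first bases of the first exon, on the strand of the gene. Rxrg has a pair of annotated starts, and Ppargc1a lies on the minus strand. Capitals mark AGGTCA, the core motif bound by these receptor families.
Rxrg upstream start, chr1:167598112-167598411, plus strand: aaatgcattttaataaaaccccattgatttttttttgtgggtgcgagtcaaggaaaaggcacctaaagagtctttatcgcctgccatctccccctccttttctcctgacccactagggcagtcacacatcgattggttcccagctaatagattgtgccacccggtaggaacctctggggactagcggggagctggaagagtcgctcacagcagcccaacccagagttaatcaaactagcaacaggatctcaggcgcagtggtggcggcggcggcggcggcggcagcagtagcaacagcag
Rxrg downstream start, chr1:167618015-167618314, plus strand: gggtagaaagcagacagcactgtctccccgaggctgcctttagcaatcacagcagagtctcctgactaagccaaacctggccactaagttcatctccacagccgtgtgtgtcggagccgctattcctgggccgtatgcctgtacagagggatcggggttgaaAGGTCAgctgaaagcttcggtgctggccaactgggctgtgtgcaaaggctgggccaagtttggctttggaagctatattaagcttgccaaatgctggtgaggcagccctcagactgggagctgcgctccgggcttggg
Ppara, chr15:85735526-85735825, plus strand: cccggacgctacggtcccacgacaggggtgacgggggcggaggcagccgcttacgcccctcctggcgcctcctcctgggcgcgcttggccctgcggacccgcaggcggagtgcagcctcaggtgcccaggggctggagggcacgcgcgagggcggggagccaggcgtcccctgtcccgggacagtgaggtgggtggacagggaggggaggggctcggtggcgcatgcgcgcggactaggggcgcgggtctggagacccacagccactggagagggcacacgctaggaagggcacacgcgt
Ppard, chr17:28232504-28232803, plus strand: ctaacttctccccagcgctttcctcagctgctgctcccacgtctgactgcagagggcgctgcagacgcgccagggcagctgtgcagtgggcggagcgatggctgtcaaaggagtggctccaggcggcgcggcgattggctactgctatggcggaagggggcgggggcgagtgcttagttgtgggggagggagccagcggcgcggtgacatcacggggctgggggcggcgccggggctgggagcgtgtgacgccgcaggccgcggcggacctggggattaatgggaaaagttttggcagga
Ppargc1a, chr5:51567676-51567975, minus strand: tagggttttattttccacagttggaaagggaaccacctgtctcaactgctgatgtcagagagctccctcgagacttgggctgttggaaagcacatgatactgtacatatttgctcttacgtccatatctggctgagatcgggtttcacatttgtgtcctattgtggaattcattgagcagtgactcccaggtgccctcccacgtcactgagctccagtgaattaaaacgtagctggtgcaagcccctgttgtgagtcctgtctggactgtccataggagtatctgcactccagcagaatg
Among these 5 windows only the downstream Rxrg window held AGGTCA, which began 88 bases before the start. On either strand, AGGTCA occurred in 4 of the 19 windows of the 10 members (Pparg with 2 windows, Rxra and Rxrg with 1 each), and in 16.3% of the 32851 windows of all genes. The longer motifs searched both contain AGGTCA, namely TCAAGGTCA, to which ERRs bind, and AGGTCA repeated after 1 base of any kind, to which PPAR-RXR pairs bind. Both were searched on either strand, and they were in none of the 19 member windows and in 0.423% and 0.0396% of all windows. The cyclic AMP response element TGACGTCA reads the same on both strands and was also in none of them, against 1.79% of all windows. Only full matches to the motifs as spelled were counted, so sites that differ by a base or more were missed. The windows of Ppara and Ppard were rich in G and C, at 74.7% and 68.3%. Those of Rxrg had 53.7% and 57.0% and that of Ppargc1a 48.7%, close to the median of 52.7% over all windows.

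Rxrg, the RXR subtype typical of skeletal and heart muscle, showed the largest fall among the members and was the most abundant RXR transcript in both WT libraries. Its level was 17.8 and 11.3 FPKM in Cdk8Tg, against 33.1 and 34.3 FPKM in WT. The groups lay well apart, and the Cdk8Tg libraries differed from each other more than the WT libraries did. The means were 14.6 ± 4.54 FPKM in Cdk8Tg and 33.7 ± 0.809 FPKM in WT (SD, n = 2 per group), and WT was thus 2.32-fold higher. The log2 change was -1.19 ± 0.20 (SE; limma's adjusted p = 0.0158), with a 95% interval of -1.68 to -0.69. In the authors' deposited table Rxrg was at 16.6 FPKM in Cdk8Tg and 42.9 FPKM in WT (q = 0.000864). The fall was past the threshold under 12 of the 15 alternatives, over which limma's log2 change or the ratio of the authors' values ran from -1.49 to -0.89 and the adjusted p from 0.000864 to 0.167. The call was lost without WT replicate 1 (limma log2 change -1.21, adjusted p = 0.0749), without WT replicate 2 (-1.17, adjusted p = 0.0941) and without a filter (adjusted p = 0.167). The gene lies on chromosome 1 at 167598384 to 167639623 of GRCm38, and 0.433% of its 31-base stretches occur in another annotated gene.

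Neither of the other RXR genes was called. Rxra, the subtype found in most tissues and required for heart development, was at 11.7 and 10.1 FPKM in Cdk8Tg, against 11.7 and 13.2 FPKM in WT. The higher Cdk8Tg value and the lower WT value were almost equal, and the log2 change was -0.17 ± 0.11 (limma, adjusted p = 0.278), with a 95% interval of -0.45 to 0.10. Rxrb, also found in most tissues, was at 20.2 and 18.2 FPKM in Cdk8Tg, against 17.8 and 19.9 FPKM in WT, so that the groups overlapped. Its log2 change was 0.03 ± 0.10 with an interval of -0.22 to 0.28 (limma, adjusted p = 0.858). Both intervals include changes in either direction, and the sign of either gene turned with scaling. Rxra came to 0.01 with equal FPKM sums, and Rxrb to -0.11 with median-of-ratios scaling.

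The make-up of the RXR family did not overlap between the groups. Rxrg made up 35.8% and 28.6% of the summed RXR FPKM in the Cdk8Tg libraries, against 52.9% and 50.9% in the WT libraries. Rxrb made up 40.7% and 45.9% in Cdk8Tg, against 28.4% and 29.6% in WT. Rxra made up 23.5% and 25.5% in Cdk8Tg and 18.7% and 19.5% in WT. None of these shares overlapped between the groups, and Rxrb rather than Rxrg was the leading RXR transcript in both Cdk8Tg libraries. A share is set by all 3 genes, so the higher shares of Rxrb and Rxra stand beside levels that were not called. The summed RXR level was 49.7 and 39.7 FPKM in Cdk8Tg and 62.6 and 67.4 FPKM in WT. An exact two-sided permutation test over 2 against 2 libraries cannot give a p below 0.333, and it gave 0.333 for each RXR share and for this sum.

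**Figure D2:**
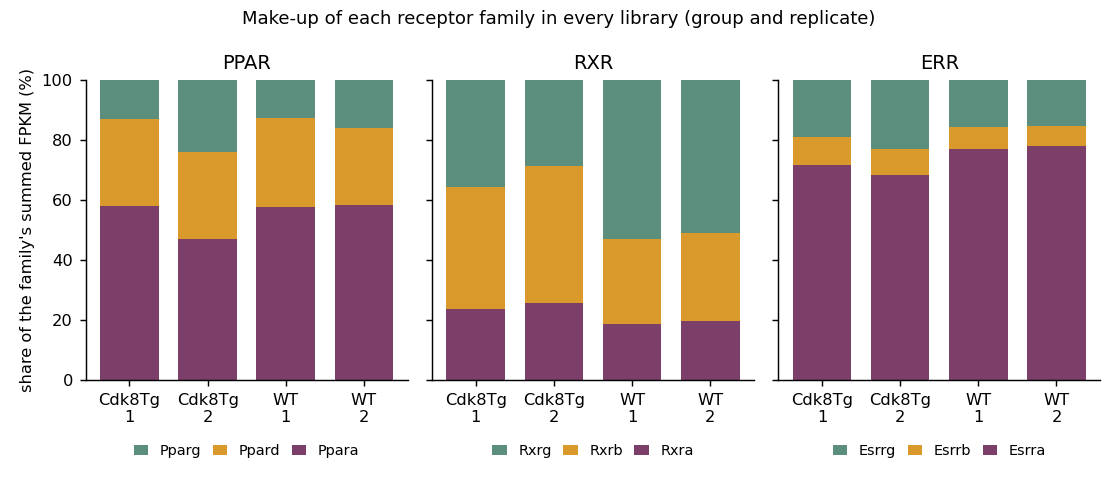
Share of each gene in the summed FPKM of the PPAR, RXR and ERR families (y axis, percent) in the 2 Cdk8Tg and 2 WT libraries. Rxrg takes 35.8% and 28.6% of the RXR sum in Cdk8Tg and 52.9% and 50.9% in WT, while the PPAR shares of the groups overlap.

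Among the PPARs, Ppara and Ppard fell and Pparg was not called. Ppara, the main activator of fatty acid oxidation genes in heart and liver, was at 14.0 and 11.5 FPKM in Cdk8Tg, against 18.7 and 21.5 FPKM in WT. The highest Cdk8Tg library was below the lowest WT library. The means were 12.7 ± 1.77 FPKM in Cdk8Tg and 20.1 ± 2.00 FPKM in WT (SD, n = 2 per group). On the log2 scale the change was -0.62 ± 0.13 (SE; limma's adjusted p = 0.0245). The authors' deposited table had it at 14.5 FPKM in Cdk8Tg and 25.5 FPKM in WT (q = 0.000864). Ppara passed under 11 of the 15 alternatives, with adjusted p-values from 0.000864 to 0.174. The call was lost without Cdk8Tg replicate 2 (limma log2 change -0.49, adjusted p = 0.0738), without WT replicate 1 (-0.72, adjusted p = 0.0723), without WT replicate 2 (-0.53, adjusted p = 0.131) and with no filter (adjusted p = 0.174). It lies on chromosome 15 at 85734983 to 85802819 of GRCm38.

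Ppard, the PPAR found in most tissues and also active on fatty acid oxidation genes in muscle, had the closest replicates of the 10 genes. It was at 6.97 and 7.07 FPKM in Cdk8Tg, against 9.50 and 9.44 FPKM in WT. The groups lay apart, although the change was small. At the depth given above, with all reads from its longest annotated transcript, counting error alone would be 4.45% to 5.61% of each value, which is more than the replicates differed by. The means were 7.02 ± 0.0755 FPKM in Cdk8Tg and 9.47 ± 0.0477 FPKM in WT (SD, n = 2 per group), and the log2 change was -0.38 ± 0.08 (SE; limma's adjusted p = 0.0299). In the authors' deposited table Ppard was at 7.99 FPKM in Cdk8Tg and 12.0 FPKM in WT (q = 0.0260). The call held under 9 of the 15 alternatives. Without any single library it was lost, with log2 changes of -0.39 to -0.38 and limma adjusted p-values of 0.0845 to 0.142. It was also lost with equal FPKM sums (log2 change -0.21, adjusted p = 0.0946) and with no filter (adjusted p = 0.0694). Ppard lies on chromosome 17 at 28232700 to 28301474 of GRCm38.

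Pparg, the PPAR that governs fat cell formation and is also active in macrophages, had the lowest mean of the members in Cdk8Tg. It measured 3.12 and 5.82 FPKM in Cdk8Tg, against 4.17 and 5.95 FPKM in WT, so that the groups overlapped and replicate 2 was the higher library in each group. At the depth given above, these values would rest on about 83 and 149 fragments in Cdk8Tg and 126 and 178 in WT, if reads came from its longest annotated transcript of 2125 bases, with counting errors of 7.49% to 11.0%. The log2 change was -0.18 ± 0.27 (limma, adjusted p = 0.644), and its 95% interval of -0.86 to 0.50 includes a change as large as that of Ppara. Several white fat markers were highest in Cdk8Tg replicate 2. Adipoq, Plin1 and Cidec, genes of fat cells, were at 3.08, 1.85 and 3.55 FPKM there and at 0.310 FPKM or less in the other 3 libraries, and the brown fat gene Ucp1 was at 10.7 FPKM there and listed at 0 in the others. The other brown fat genes of the list differed from Ucp1. Cidea was at 24.8 FPKM there, but also at 14.8 FPKM in Cdk8Tg replicate 1 and at 17.6 and 16.9 FPKM in WT. Elovl3 was listed at 0 there and was highest in WT replicate 2, at 0.077 FPKM. Retn, a white fat marker, was listed at 0 in Cdk8Tg replicate 2 and was highest in WT replicate 1, at 0.807 FPKM. The summed level of 6 white fat markers was 0.416 and 14.9 FPKM in Cdk8Tg and 2.69 and 0.105 FPKM in WT. WT replicate 2, which had the highest Pparg, had the lowest such sum. Without Cdk8Tg replicate 2 the log2 change of Pparg was -0.54 and without Cdk8Tg replicate 1 it was 0.19, with no call in either case (limma, adjusted p = 0.148 and 0.545). The part of fat RNA in the Pparg values was not tested.

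The PPAR family as a sum was lower in Cdk8Tg, at 24.0 and 24.4 FPKM, against 32.4 and 36.9 FPKM in WT. Its make-up overlapped between the groups. Ppara held 58.1% and 47.0% of the sum in Cdk8Tg, against 57.7% and 58.3% in WT, and was the leading PPAR transcript in every library. Ppard held 29.0% and 29.0% in Cdk8Tg, against 29.4% and 25.6% in WT. The exact permutation test gave p = 0.333, its smallest value, for the PPAR sum and p = 0.667 for the Ppara share, with Cdk8Tg replicate 2 apart from the other 3 libraries.

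No ERR gene was called on the deposited scale. Esrra, the main ERR of oxidative tissues and the member with the highest mean in both groups, measured 41.5 and 34.5 FPKM in Cdk8Tg, against 50.0 and 47.6 FPKM in WT. The groups did not overlap, with a log2 change of -0.36 ± 0.11 (SE; limma's adjusted p = 0.0666) and a 95% interval of -0.63 to -0.08. Esrra passed with median-of-ratios scaling (log2 change -0.50, adjusted p = 0.0362) and without Cdk8Tg replicate 1 (-0.49, adjusted p = 0.0321), and its adjusted p over all alternatives ran up to 0.259. In the authors' deposited table it stood at 43.4 FPKM in Cdk8Tg and 62.0 FPKM in WT and just missed the threshold (q = 0.0668). Of its 31-base stretches, 3.47% occur in other annotated genes, chiefly Mir6990 and Trmt112, whose exons overlap its own.

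Esrrg and Esrrb did not follow Esrra. Esrrg, the ERR linked to the change of the newborn heart to oxidative metabolism, was at 11.1 and 11.6 FPKM in Cdk8Tg, against 10.2 and 9.45 FPKM in WT. It was the only member whose Cdk8Tg libraries both exceeded both WT libraries, with a log2 change of 0.19 ± 0.09 (limma, adjusted p = 0.163) and an interval of -0.03 to 0.41. It was called higher with equal FPKM sums (log2 change 0.37, adjusted p = 0.0241) and came to 0.06 with median-of-ratios scaling (adjusted p = 0.673). Esrrb, best known from stem cells and the placenta, was at 5.28 and 4.35 FPKM in Cdk8Tg, against 4.89 and 3.97 FPKM in WT. These groups overlapped, and the log2 change of 0.10 ± 0.14 (limma, adjusted p = 0.612) turned to -0.02 with median-of-ratios scaling and to -0.05 with quantile normalization. Esrra made up 71.7% and 68.4% of the summed ERR FPKM in Cdk8Tg, against 76.9% and 78.0% in WT. The Esrrg share was 19.1% and 23.0% in Cdk8Tg and 15.6% and 15.5% in WT. The summed ERR level was 57.8 and 50.5 FPKM in Cdk8Tg and 65.0 and 61.0 FPKM in WT. Neither these shares nor the sum overlapped between the groups, and the exact permutation test gave p = 0.333 for each, its smallest value.

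Ppargc1a, the coactivator that PPARs and ERRs share, had a large difference in means that limma did not call. It was at 23.2 and 20.6 FPKM in Cdk8Tg, against 31.1 and 58.7 FPKM in WT. Both Cdk8Tg libraries were below both WT libraries, but the WT libraries differed from each other more than WT replicate 1 differed from Cdk8Tg. The means were 21.9 ± 1.80 FPKM in Cdk8Tg and 44.9 ± 19.5 FPKM in WT (SD, n = 2 per group). On the log2 scale the change was -0.94 ± 0.28 (SE; limma's adjusted p = 0.0645, unadjusted p = 0.0187). The size rested on WT replicate 2. Without it the log2 change was -0.49 (adjusted p = 0.110), and without WT replicate 1 it was -1.39 and past the threshold (adjusted p = 0.0241). In the authors' deposited table Ppargc1a was lower, at 24.9 FPKM in Cdk8Tg and 57.1 FPKM in WT (q = 0.000864). The authors' group FPKM were 1.14 times the mean of the libraries in Cdk8Tg and 1.27 times in WT, as medians over 7237 genes, a shift of -0.16 in the log2 ratios of that table for a gene at both medians. The adjusted p of Ppargc1a over all alternatives ran from 0.000864 to 0.352. It lies on chromosome 5 at 51454250 to 51567726 of GRCm38, on the minus strand.

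**Figure D3:**
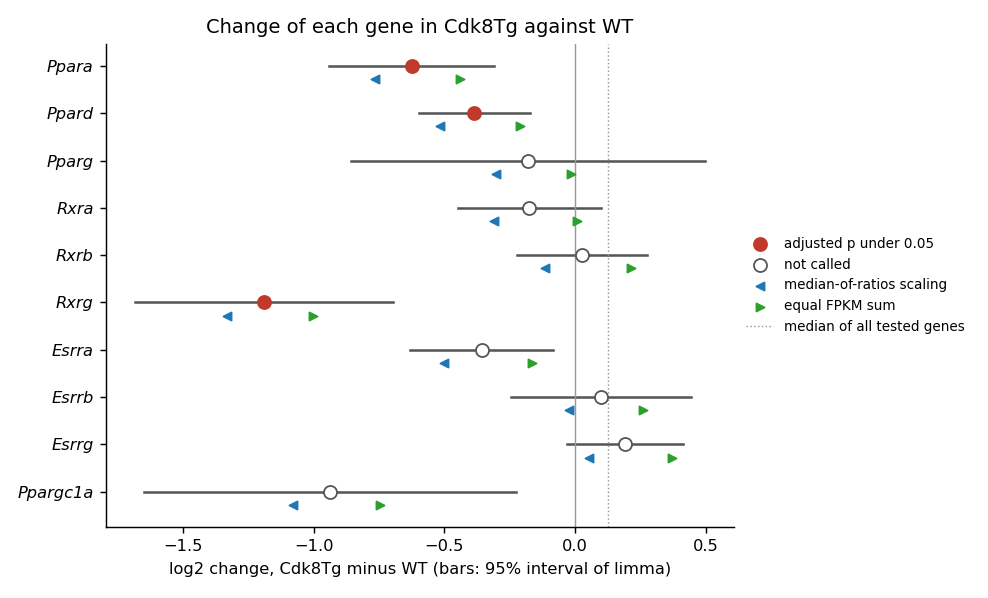
Log2 change (x axis, Cdk8Tg minus WT on log2(FPKM + 1)) of each gene, with limma's 95% interval as a bar, filled circles for an adjusted p under 0.05 and triangles for the value under 2 other scalings. Rxrg, Ppara and Ppard are filled at -1.19, -0.62 and -0.38, and the dotted line at 0.13 is the median of all tested genes.

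Seen across the members, the groups did not overlap for 7 of the 10 genes, 6 of them lower in Cdk8Tg and 1 higher. Over all tested genes the groups did not overlap for 70.3%, with 21.1% lower and 49.2% higher. The total of 7 is thus close to the background. The lower ones were a larger share than among all genes, and this difference was not tested. In order of mean level, the members ran Esrra, Ppargc1a, Rxrb, Rxrg, Ppara, Esrrg, Rxra, Ppard, Esrrb and Pparg in Cdk8Tg. In WT they ran Esrra, Ppargc1a, Rxrg, Ppara, Rxrb, Rxra, Esrrg, Ppard, Pparg and Esrrb. In Cdk8Tg the run from Rxrg through Ppara and Esrrg to Rxra had ranges that overlapped from one gene to the next, as had Esrrb and Pparg. In WT the ranges of neighbours overlapped from Esrra through Ppargc1a to Rxrg, between Ppara and Rxrb, between Esrrg and Ppard, and between Pparg and Esrrb. The other neighbours in either order did not overlap.

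Among 11 other receptors that pair with RXR, 8 passed the filter on low values and none was called, beside 24.9% of all tested genes. At an unadjusted p under 0.05 in limma there were 2 of these 8, beside 41.6% of all tested genes. They were Nr4a1, an orphan receptor induced early by many stimuli, and Rarb, a retinoic acid receptor. Nr4a1 was at 15.6 and 13.1 FPKM in Cdk8Tg, against 18.8 and 25.6 FPKM in WT (limma log2 change -0.59, adjusted p = 0.0534). Rarb was at 12.0 and 10.1 FPKM in Cdk8Tg, against 6.74 and 8.97 FPKM in WT (0.45, adjusted p = 0.0833). Median-of-ratios scaling, quantile normalization, robust variance, a minimum of 5 FPKM and the authors' deposited table each gave 1 lower call. Equal FPKM sums gave 1 higher call, beside 41.2% of all tested genes. The share of all tested genes called lower was 11.7% with median-of-ratios scaling, 8.74% with quantile normalization and 8.43% in the authors' deposited table. The list's median log2 change was -0.05, beside 0.13 over all tested genes, and 0.13 with equal FPKM sums, beside 0.30.

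Of 18 other coactivators and corepressors, 2 (11.1%) fell and 1 (5.56%) rose, beside 7.98% and 16.9% over all tested genes, so that the share of falls was near the background and that of rises below it. The list's median log2 change was 0.03. Lpin1, a phosphatidate phosphatase that also acts as a coactivator of PPAR-alpha with Ppargc1a, fell to 17.6 and 13.7 FPKM in Cdk8Tg, against 34.1 and 38.2 FPKM in WT. Its log2 change was -1.17 ± 0.14 (limma, adjusted p = 0.00758). Perm1, a muscle protein induced by PGC-1 and ERR and listed under its older symbol 2310042D19Rik, was at 63.8 and 50.2 FPKM in Cdk8Tg, against 80.2 and 82.7 FPKM in WT (-0.52, adjusted p = 0.0390). Ncoa1, a coactivator of many nuclear receptors, rose to 8.67 and 7.84 FPKM in Cdk8Tg, against 5.60 and 6.13 FPKM in WT (0.43, adjusted p = 0.0348). Ppargc1b, the nearest relative of Ppargc1a, was at 5.36 and 6.05 FPKM in Cdk8Tg and 7.05 and 8.13 FPKM in WT without a call (-0.36, adjusted p = 0.071). It was lower in the authors' deposited table (q = 0.0447). The Ncoa1 call ended with median-of-ratios scaling, with quantile normalization and in the authors' deposited table, and that of Perm1 with equal FPKM sums, with quantile normalization and with no variance trend. With no filter all 3 were lost. Without WT replicate 2 none of these 3 calls remained, and without WT replicate 1 only that of Lpin1 did. Without Cdk8Tg replicate 1 the Ncoa1 call was lost, and without Cdk8Tg replicate 2 those of Ncoa1 and Perm1 were lost.

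Genes known as PPAR targets were mostly lower. Of 30 listed, Fgf21 was at 0 in every library and was left out. Of the remaining 29, 18 (62.1%) fell, 1 (3.45%) rose and 10 were not called, with a median log2 change of -0.63. Over all tested genes 7.98% fell and 16.9% rose. Plin5, a lipid droplet protein of oxidative tissue, measured 9.24 and 11.9 FPKM in Cdk8Tg, against 50.6 and 55.0 FPKM in WT (log2 change -2.23 ± 0.13; limma, adjusted p = 0.00218). Ech1, an auxiliary enzyme of fatty acid oxidation, was at 223 and 243 FPKM in Cdk8Tg, against 818 and 968 FPKM in WT (-1.93, adjusted p = 0.00228). Lipoprotein lipase, Lpl, changed by -1.73 and the fatty acid transporter gene Slc27a1 by -1.32 (adjusted p = 0.00337 and 0.00407). The rise was that of Ehhadh, a peroxisomal oxidation enzyme, at 6.87 and 5.27 FPKM in Cdk8Tg, against 3.66 and 3.67 FPKM in WT (0.59, limma adjusted p = 0.0332). It was lost with median-of-ratios scaling, with quantile normalization, with no filter and in the authors' deposited table. It was also lost without Cdk8Tg replicate 1, WT replicate 1 or WT replicate 2, and the stricter filter of 5 FPKM left Ehhadh out. Plin2, a general lipid droplet protein, and Angptl4, a secreted inhibitor of lipoprotein lipase, were not called, with log2 changes of -0.04 and -0.04, and were singled out after their values were seen. Over all tested genes, 11.7% fell with median-of-ratios scaling, 8.74% with quantile normalization and 5.49% with equal FPKM sums. In the same order, the counts of falls among the PPAR targets were 20, 15 and 14. On the deposited scale the count dropped when either WT library was left out, as did calls over all tested genes.

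Genes known as targets of ERRs and PGC-1 were mostly lower too. Of 25 listed, 17 (68.0%) fell, none rose and 8 were not called, with a median log2 change of -0.58. Over all tested genes 7.98% fell and 16.9% rose. Cox7a1 and Cox6a2, muscle subunits of cytochrome c oxidase, changed by -1.42 ± 0.12 and -1.25 ± 0.15 (limma, adjusted p = 0.00407 and 0.00821). Cox7a1 was at 1095 and 991 FPKM in Cdk8Tg, against 2645 and 2955 FPKM in WT. Sdhb of complex II and Slc25a4, the adenine nucleotide carrier of muscle mitochondria, changed by -0.94 and -0.92 (adjusted p = 0.00891 and 0.0108). The transcription factor genes Nrf1, Gabpa, Tfam and Tfb2m, which govern nuclear and mitochondrial genes of respiration, had log2 changes between 0.06 and 0.12 with no call (adjusted p = 0.357 to 0.680). These 4 genes were singled out after their values were seen, and with median-of-ratios scaling all 25 genes of the list, they included, had log2 changes below 0. Scaling moved the counts of this list. There were 20 falls after median-of-ratios scaling, beside 11.7% of all tested genes, and 7 after quantile normalization, beside 8.74%. With equal FPKM sums there were 13 falls and 3 rises (Gabpa, Tfam and Tfb2m), beside 5.49% and 41.2% of all tested genes. On the deposited scale nearly all of these falls were lost when either WT library was left out. Calls over all tested genes dropped as well.

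**Figure D4:**
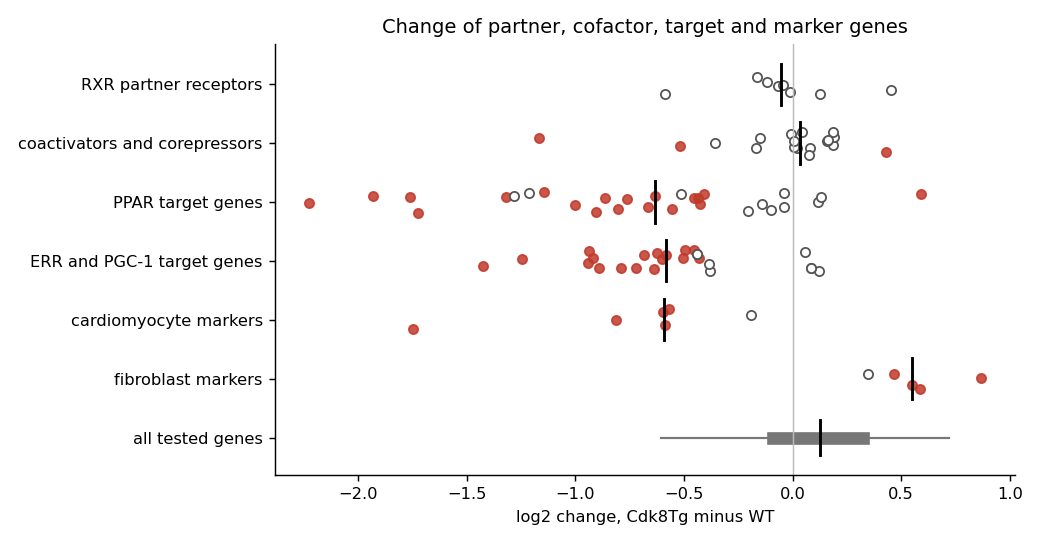
Log2 change (x axis, Cdk8Tg minus WT) of each tested gene of 6 lists, with filled circles for an adjusted p under 0.05 in limma, open circles for genes not called and black bars for list medians. The bottom row gives all tested genes as median, quartiles (thick bar) and the 5th to 95th percentile (thin line). Medians lie at -0.63 for PPAR targets, -0.58 for ERR and PGC-1 targets and -0.59 for cardiomyocyte markers, beside 0.13 for all genes.

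Markers of heart muscle cells themselves moved with the falls. Of 6 cardiomyocyte markers, 5 fell and 0 rose, beside 7.98% and 16.9% of all tested genes. Their median log2 change was -0.59, close to the -0.63 and -0.58 of the 2 target lists. Tnni3, cardiac troponin I, was at -1.75, and Tnnt2, Ryr2, Myh6 and Pln were between -0.81 and -0.57. Actc1 was not called (-0.19, limma adjusted p = 0.341). With quantile normalization 2 of the 6 markers fell and 1 rose, beside 8.74% and 8.34% of all tested genes. With equal FPKM sums 3 of the 6 fell, beside 5.49%. The count of falls was 2 in the authors' deposited table, beside 8.43% of all tested genes, and 0 with no filter. It also dropped without either WT library. Over all tested genes, calls dropped too with no filter and with each library left out. Their summed level was 23545 and 21296 FPKM in Cdk8Tg, against 34935 and 32944 FPKM in WT, a ratio of means of 0.661. The ratio of means was 0.432 for Rxrg, 0.488 for Ppargc1a, 0.632 for Ppara and 0.741 for Ppard. It was 0.603 for the summed PPAR targets and 0.583 for the summed ERR and PGC-1 targets. In ventricle tissue, fewer cells of a type and less RNA per cell cannot be told apart. Of 5 fibroblast markers, 4 (Lum, Col1a1, Pdgfra and Tcf21) rose and none fell, beside 16.9% and 7.98% of all tested genes. Their summed level was 687 and 837 FPKM in Cdk8Tg and 559 and 556 FPKM in WT. The count of rises was 2 with median-of-ratios scaling, beside 7.96% of all tested genes, and 1 in the authors' deposited table, beside 5.53%. It was 3 with quantile normalization, beside 8.34%, and 5 with equal FPKM sums, beside 41.2%. With no filter it was 0, and it dropped without Cdk8Tg replicate 2 or either WT library. Of 5 endothelial markers none was called by limma and 0 reached an unadjusted p under 0.05. After median-of-ratios scaling 4 of the 5 reached it, with a median log2 change of -0.24, and none was called. Among all 11888 tested rows, 4310 reached it after that scaling. The sum of the endothelial markers was 215 and 198 FPKM in Cdk8Tg and 228 and 225 FPKM in WT. Of 4 macrophage markers that passed the filter 2 fell, Mrc1 and Csf1r, and 0 without either WT library, with sums over the list of 26.9 and 31.9 FPKM in Cdk8Tg and 43.2 and 43.0 FPKM in WT. Atrial markers varied within both groups, with sums of 81.2 and 344 FPKM in Cdk8Tg and 275 and 25.4 FPKM in WT, and Bmp10 was at 0 throughout. Myl4 was highest in Cdk8Tg replicate 2, at 281 FPKM, and Sln and Myl7 in WT replicate 1, at 43.8 and 136 FPKM. No atrial marker was called by limma, and the authors' deposited table had 2 lower and 1 higher. Among 5 smooth muscle markers, Cnn1 rose and Smtn fell, with sums of 437 and 738 FPKM in Cdk8Tg and 354 and 357 FPKM in WT. The list had no fall when Cdk8Tg replicate 2 or either WT library was left out, with quantile normalization, equal FPKM sums, no variance trend or no filter, and it had 4 rises when Cdk8Tg replicate 1 was left out. The erythroid markers had no call in limma and 1 lower in the authors' deposited table. Their sums overlapped, at 4004 and 2887 FPKM in Cdk8Tg and 3919 and 6036 FPKM in WT. The part of these differences in the receptor values was not tested.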

How the data were processed

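TopHat 1.0.0, the mm10 build, Cufflinks and Cuffdiff were used, per the submitters' processing notes. For Cufflinks and Cuffdiff the version, the annotation, the strand setting and the scaling between libraries are not given in these sources. The authors deposited FPKM per gene and library, and a comparison table with an FPKM per group and, per the file headers, a p-value and a q-value, whose own fold change column was not used because it held spreadsheet errors.

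From the deposited FPKM, log2(FPKM + 1) was fitted in limma 3.58.1 (R 4.3.3), with a variance trend, Benjamini-Hochberg adjustment and 2 residual degrees of freedom, over the 4 libraries, for 11888 rows with a mean of at least 1 FPKM. Log2 changes on this scale understate changes of low genes. The fit was tested on simulated data, with large changes in a small part of the genes and equal noise in all. That test does not cover small changes or wide gaps between replicates. Alternatives were no filter, a stricter one of 5 FPKM, pseudocounts of 0.1 and 5, scaling by median of ratios (factors 1.04 and 1.06 in Cdk8Tg, 0.958 and 0.944 in WT), quantile normalization, equal FPKM sums, no trend, robust variance, a replicate block, each library left out, and the authors' calls.

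Levels within a library, subtype shares and summed markers were computed with pandas 2.3.3, and exact permutation tests with SciPy 1.17.1. Library depth was estimated from the steps of FPKM values under 0.1, and 68.1% to 76.6% of these lay within 0.15 of a whole fragment. Depth covers counting error only. Positions and shared 31-base stretches came from GENCODE vM21 (GRCm38), and promoter windows, for all 10 members, from RefSeq. Members, lists and tests were chosen with earlier results of these data known. All members are named, with up to 4 called genes per list by smallest p, and other genes were chosen after their values were seen. List genes were matched by symbol, 2 of them under an older one.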

Additional observations from a re-analysis of the deposited data

How the results depend on the processing

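Counts of calls moved most with the filter and with single libraries. With no filter on low values, 0 members, 0 PPAR targets and 0 ERR and PGC-1 targets were called lower and 279 genes in all, against 2958 in the fit described above. The cause was not tested. Equal FPKM sums gave 5552 calls in all and 1 member higher, and quantile normalization 7 lower ERR and PGC-1 targets. In the authors' deposited values 1730 genes passed. Leaving out 1 library at a time, with 1 residual degree of freedom and a lone library assumed to vary like the other group, gave 0 to 3 members lower, 287 to 2380 calls in all, 4 to 20 lower PPAR targets and 0 to 21 lower ERR and PGC-1 targets.

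Signs turned for members that were not called. Rxrb came to -0.11 with median-of-ratios scaling, -0.077 with quantile normalization and -0.13 in the authors' deposited table. Esrrb came to -0.021, -0.054 and -0.030 in the same order, and Rxra to 0.0072 with equal FPKM sums. With 1 library left out, Pparg ran from -0.54 to 0.19, Rxrb from -0.050 to 0.10 and Esrrb from -0.022 to 0.22. Rxrg, Ppara, Ppard, Esrra and Ppargc1a stayed below 0 and Esrrg above 0 under every alternative run.

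The replicate numbers were not shown to pair the libraries, as deviations of same-numbered libraries correlated at -0.03 across genes. With the replicate block, 5 members were lower, with Esrra (limma adjusted p = 0.0490) and Ppargc1a (limma adjusted p = 0.0467) added. Among the subtype shares, recomputed without each library in a step chosen after seeing the data, the PPAR differences turned. The Ppara difference was -5.46 percentage points over all libraries and 0.05 without Cdk8Tg replicate 2, that of Pparg 3.92 and -1.55 in the same order, and that of Ppard 1.53 over all libraries and -0.36 without WT replicate 2.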

Other observations

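Some PPAR targets varied widely within groups, as did Ppargc1a in WT. Those named were singled out after their values were seen. Pdk4, the kinase that shuts off pyruvate dehydrogenase, measured 44.4 and 84.5 FPKM in Cdk8Tg, against 99.4 and 206 FPKM in WT, so that replicate 2 was 1.91 times replicate 1 in Cdk8Tg and 2.07 times in WT. Over the 29 tested PPAR targets the ratio of replicate 2 to replicate 1 had a median of 1.09 in Cdk8Tg and 1.06 in WT. Angptl4 was the highest of them in Cdk8Tg, at 4.07, and Pdk4 in WT. Among the members this ratio was largest for Pparg in Cdk8Tg, at 1.87, and for Ppargc1a in WT, at 1.89.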
